A study of Homo sapiens with 6 samples.

Results

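The 2′-5′-oligoadenylate synthetase (OAS) family was examined in RNA-seq read counts of cells that the study describes as MDA-MB-231 PTX-resistant BCSC. The comparison was of 3 libraries labelled LINC00115 KD with 3 libraries labelled WT. The members were the rows of the count table whose symbol equals Oas1a, Oas1b, Oas1c, Oas1g, Oas2, Oas3, Oasl1 or Oasl2, and 7 of these 8 symbols had a row among 22989 genes. Oas1b had no row and was not analysed here. All 7 members were higher in the KD libraries than in the WT libraries, by 2.75-fold for Oas1c up to 18.5-fold for Oasl1.

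MDA-MB-231 cells come from a human breast cancer of the triple-negative type, PTX is paclitaxel, and BCSC are breast cancer stem cells, sorted in the study for aldehyde dehydrogenase activity (ALDH+). In the labels the KD cells have the genotype LINC00115 knockdown, and the study made such cells with short hairpin RNAs (shRNAs) against LINC00115, a long non-coding RNA. The controls are labelled WT, and the study writes of a control shRNA in its other knockdown experiments, and whether the WT libraries carried one is not given. Without it, a response to the hairpin or its vector cannot be told apart from that to the loss of LINC00115. The columns of the KD libraries are named sh115-1 to sh115-3. The study uses the first and second of these names for different shRNAs, but it names only sh115-2 for the knockdown behind its RNA-seq comparison. By that account the 3 KD libraries carried 1 shRNA, and no other shRNA was compared. No label says that the libraries of a group came from separate cultures, and the p-values therefore measure only the spread between these libraries.

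OAS enzymes are switched on by double-stranded RNA and join ATP into short 2′-5′-linked oligoadenylates (2-5A). Cells that hold 2-5A break down RNA of virus and host, which slows protein synthesis. OAS genes are transcribed at a low level in many cells and are typical targets of type I interferon, which acts through its receptor, the JAK kinases and STAT factors. The human genome has 1 OAS1 and 1 OASL gene, whereas mice carry a tandem array of Oas1 copies and have Oasl1 and Oasl2.

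The symbols in the table are written in the mouse style, although the samples are labelled human. Of the 7 members with a row, Oas2 and Oas3 equal a current human symbol apart from case, Oasl1 equals an older name of human OASL, and Oas1a, Oas1c, Oas1g and Oasl2 equal no human symbol. Rows without a human counterpart by name still held many reads. Oas1c had 285 to 941 counts per library, Oas1a 2921 to 11170 and Oasl2 3885 to 20874. The rows are thus named for mouse genes, and the species that the reads came from was not tested. The table has 0 rows named LINC00115, so the knockdown could not be checked, and every direction rests on the labels. Library totals lay between 36979221 and 38799331 counts. Vim and Cd44, which MDA-MB-231 cells express strongly, were abundant in every library (means of 3420 and 911 normalized CPM in the WT libraries), while Aldh1a1 (0.327 normalized CPM) and Aldh1a3 (0.00885), which encode aldehyde dehydrogenases, and Epcam (0.0177) were near the limit of detection in the WT libraries, and Aldh1a1 reached 1.16 normalized CPM in the KD libraries. Normalized CPM give each count as a share of its library's total (CPM), with totals scaled by the TMM method.

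In the human genome, OAS1 (chr12:113343661-113371024), OAS3 (chr12:113375856-113414265) and OAS2 (chr12:113416200-113449528) stand in a row on the plus strand of GRCh37 (hg19), and OASL (chr12:121455566-121477049) lies on the minus strand of the same chromosome. No mouse positions are given because no mouse genome was used. The upstream sequence of human OAS1 and OAS3 from RefSeq (GRCh38.p14) is shown with its repeats of GAAA, a pattern that interferon-activated factors bind. Whether such factors acted on the counted genes was not tested. The promoters of OAS2 and OASL were not examined here, so this pair does not stand for the family, and Oasl1 and Oas2, the members with the largest changes, are not covered. The capitals mark matches to GAAANNGAAA or GAAANGAAA, 2 patterns that were searched on both strands and chosen with these sequences in view. OAS1 is shown from 60 bases before the gene's start (chr12:112906902-112906961, plus strand), and OAS3 from 160 bases before it (chr12:112938314-112938473, plus strand).
OAS1: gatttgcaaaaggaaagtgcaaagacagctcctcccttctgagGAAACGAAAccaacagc
OAS3: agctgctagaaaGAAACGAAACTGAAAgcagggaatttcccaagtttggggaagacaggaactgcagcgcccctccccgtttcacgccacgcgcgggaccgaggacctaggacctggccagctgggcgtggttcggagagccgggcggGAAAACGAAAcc
OAS1 held 1 match, to GAAANGAAA, which starts 17 bases before the gene's start. OAS3 held 1 match to GAAANGAAA and 2 to GAAANNGAAA, of which the farther one overlaps the GAAANGAAA match and the nearer one starts 12 bases before the gene's start. Of 35116 RefSeq promoters of 300 bases, 3.57% held GAAANNGAAA, 3.12% held GAAANGAAA and 6.40% held either. Because the patterns were chosen with OAS1 and OAS3 in view, these shares do not test whether the matches are unusual. A match is a description of the sequence, and no binding was measured in this series.

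The quasi-likelihood test of edgeR was run on all 13497 genes that passed its expression filter, and p-values were adjusted by Benjamini-Hochberg over those genes. Following the thresholds in the study's methods, a gene was called higher or lower where its adjusted p was under 0.05 and the change exceeded 2-fold. All 7 members passed the expression filter and all 7 were called higher, while 10.2% of all genes tested were called higher and 9.98% lower. The number of members called lower was 0 with edgeR, also at an unadjusted p under 0.05, and 0 with DESeq2, which called the same 7 members higher. In all 7 members each KD library lay above each WT library, which was so for 37.8% of all genes tested. By the adjusted p alone, 36.7% of all genes tested were higher and 36.7% lower, so that a small adjusted p was common in this comparison. The median log2 fold change of the members was 2.04, against −0.0061 over all genes tested.

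Oas1a and Oas1g are the catalytically active mouse copies of OAS1. Oas1a had 80.3, 77.4 and 82.5 normalized CPM in the WT libraries and 289, 288 and 287 in the KD libraries. The coefficient of variation was 0.340% in the KD libraries and 3.19% in the WT libraries. Each rests on 3 libraries, and their difference was not tested. The log2 fold change was 1.85 (standard error, SE, 0.04; adjusted p = 5.68e-30 by edgeR's test), a 3.60-fold increase.

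Oas1g had 29.1, 29.8 and 29.2 normalized CPM in the WT libraries and 118, 122 and 122 in the KD libraries. The groups lay far apart, and the log2 fold change was 2.04 (SE 0.05, adjusted p = 4.57e-28, edgeR), a 4.11-fold increase. Oas1c, a copy for which no synthetase activity is known, had 7.70, 7.79 and 7.54 normalized CPM in the WT libraries and 24.3, 20.2 and 18.7 in the KD libraries. It was the member with the widest spread in the KD libraries (coefficient of variation 13.8%) and the smallest change, a log2 fold change of 1.46 (SE 0.10, adjusted p = 1.53e-14, edgeR). KD replicate 1 was the highest of the KD libraries for Oas1c and the lowest for Oas1g.

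The Oas1 copies resemble each other in sequence, and how reads shared between them were counted is not given, so the division of reads among Oas1a, Oas1c and Oas1g is uncertain. Their sum does not depend on that division, though reads discarded as shared would be missing from it. All Oas1 rows of the table together, 7 genes with Oas1d, Oas1e, Oas1f and Oas1h included, had 117, 115 and 119 normalized CPM in the WT libraries and 431, 430 and 428 in the KD libraries, a 3.67-fold difference. The last 4 genes, which in mice are mainly ovarian, hardly contributed. Oas1d had 0, 2 and 7 counts in the WT libraries and 12, 11 and 21 in the KD libraries, and it was called higher (log2 fold change 2.24, SE 0.77, adjusted p = 0.00976, edgeR). That call was lost without WT replicate 1 (log2 fold change 1.67, adjusted p = 0.071, edgeR) and without KD replicate 3 (1.90, adjusted p = 0.0647), and without WT replicate 3 the log2 fold change was 3.71. Oas1e, Oas1f and Oas1h had at most 2 counts in any library and were not tested.

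Oas2 and Oas3 encode larger synthetases that carry the OAS unit in tandem, and OAS3 makes the longer 2-5A. Oas2 had 55.7, 54.5 and 60.8 normalized CPM in the WT libraries and 338, 368 and 342 in the KD libraries. It showed the second largest change of the family, a log2 fold change of 2.61 (SE 0.04, adjusted p = 1.04e-32, edgeR) or 6.13-fold. Oas3 had 87.3, 90.1 and 92.0 normalized CPM in the WT libraries and 295, 310 and 317 in the KD libraries. Its log2 fold change of 1.77 (SE 0.04, adjusted p = 3.06e-29, edgeR) was close to that of Oas1a, and their difference was not tested.

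The Oasl genes encode OAS-like proteins with a ubiquitin-like tail. Mouse Oasl1 lacks synthetase activity and is known to restrain the translation of Irf7 mRNA, whereas Oasl2 has kept the activity. Oasl1 had 17.5, 18.9 and 19.1 normalized CPM in the WT libraries and 337, 346 and 343 in the KD libraries. Its lowest KD library stood 18.2-fold above the WT mean, and the highest KD library of any other member, for Oas2, stood 6.46-fold above it. The log2 fold change of Oasl1 was 4.21 (SE 0.05, adjusted p = 4.77e-38, edgeR), and 178 of the 13497 genes tested, Oasl1 included, had a log2 fold change as large or larger. Oasl2 had 103, 107 and 112 normalized CPM in the WT libraries and 531, 555 and 550 in the KD libraries. It held the most counts of the family in both groups and rose by 2.34 on the log2 scale (SE 0.04, adjusted p = 1.91e-33, edgeR).

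**Figure D1:**
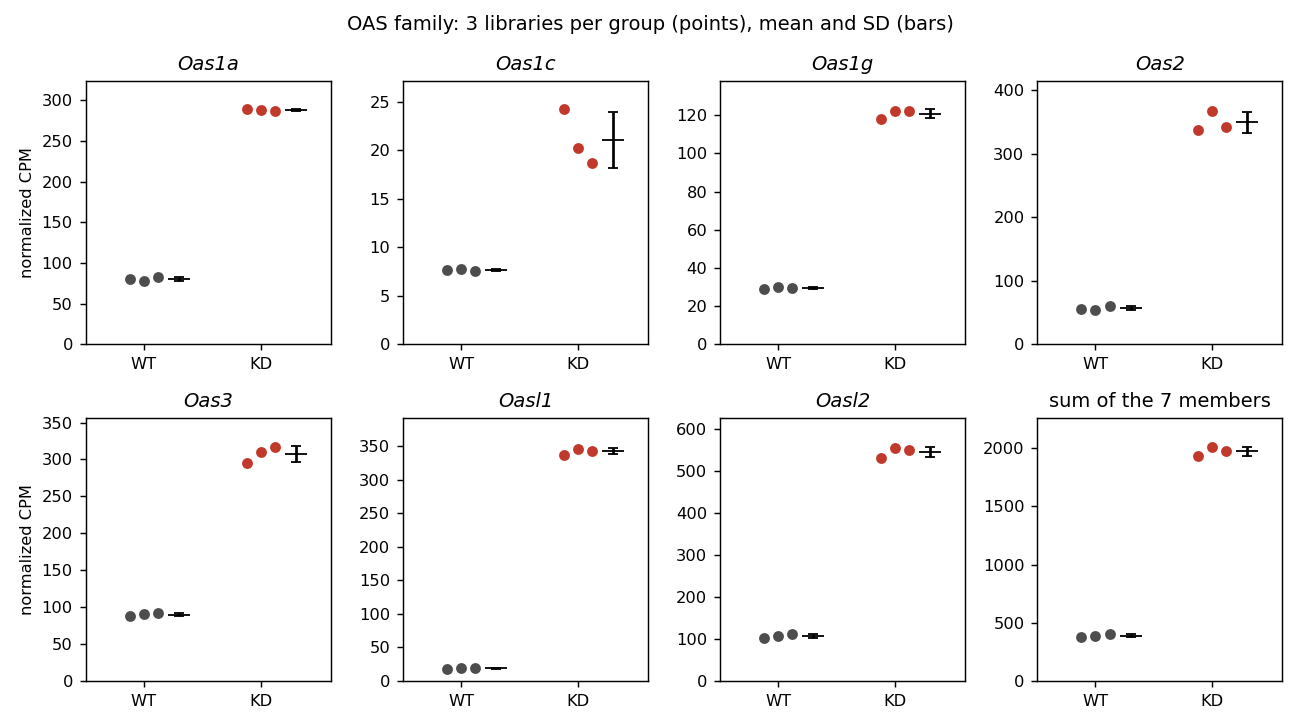
Normalized CPM (vertical axes, from 0) of the 7 OAS members, and of their sum in the last panel, in each of 3 WT and 3 KD libraries (points), with the mean and SD of each group beside them. Every KD point lies above every WT point for the 7 members and their sum, and Oasl1 shows the widest gap, from 17.5 to 19.1 in the WT libraries and from 337 to 346 in the KD libraries.

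Relative to the WT mean, the KD libraries spanned 2.44 to 3.17-fold for Oas1c, 3.28 to 3.53 for Oas3, 3.58 to 3.61 for Oas1a, 4.01 to 4.16 for Oas1g, 4.94 to 5.16 for Oasl2, 5.92 to 6.46 for Oas2 and 18.2 to 18.7 for Oasl1. These ranges do not overlap. For Oas3 and Oas1a, however, the WT libraries themselves spanned 0.972 to 1.02 and 0.967 to 1.03 of their mean, so that the gap between these neighbours is within the spread of the WT libraries. Levels were not put in order between genes, because transcript lengths for these symbols were not used here and CPM are not per length.

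**Figure D2:**
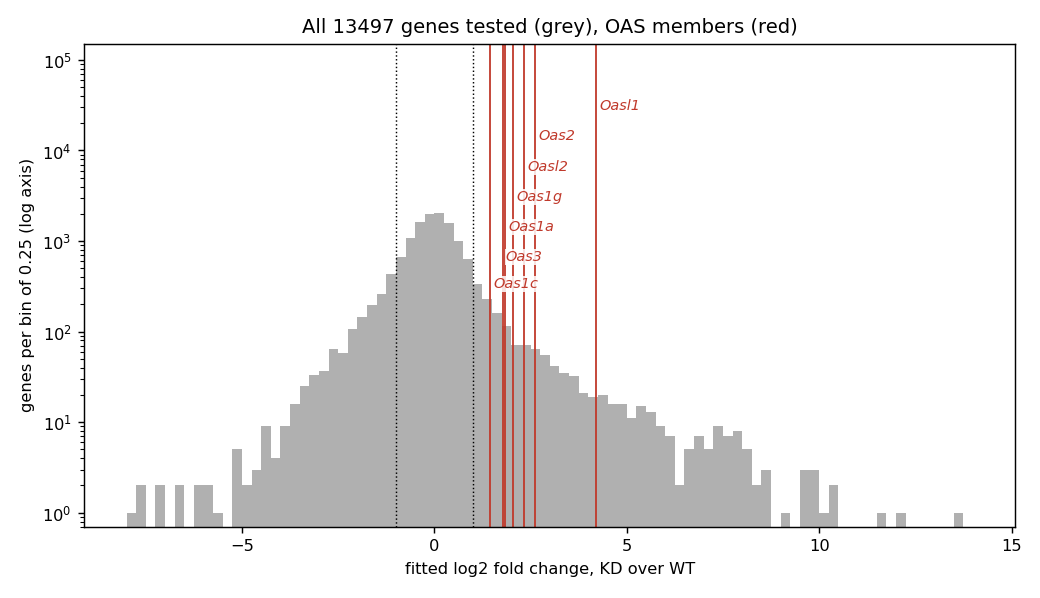
Number of genes (vertical log axis) per bin of fitted log2 fold change, KD over WT, for all 13497 genes tested, with vertical red lines at the 7 OAS members and dotted lines at a fold change of 2 in either direction. The members lie on the right flank between 1.46 for Oas1c and 4.21 for Oasl1, outside the dotted lines.

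The unequal changes altered the makeup of the family's counts. The 7 members together had 381, 386 and 403 normalized CPM in the WT libraries and 1930, 2010 and 1980 in the KD libraries, a 5.06-fold difference. Within that sum, Oasl1 took 4.74% ± 0.150 of the counts in the WT libraries and 17.3% ± 0.105 in the KD libraries (SD, n = 3 each). Oas3 took 23.0% ± 0.278 and 15.6% ± 0.387, and Oas1a took 20.5% ± 0.520 and 14.6% ± 0.330. Oasl2 kept a similar place, with 27.6% ± 0.430 in the WT libraries and 27.6% ± 0.134 in the KD libraries. The groups did not overlap for 6 of the 7 shares and overlapped for Oasl2. In an exact permutation test, two-sided, each of those 6 shares gave p = 0.1 (adjusted over the 7 shares 0.117), the smallest value that 3 libraries against 3 allow, and Oasl2 gave p = 1. The shares add up to a whole and are therefore not independent of each other.

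**Figure D3:**
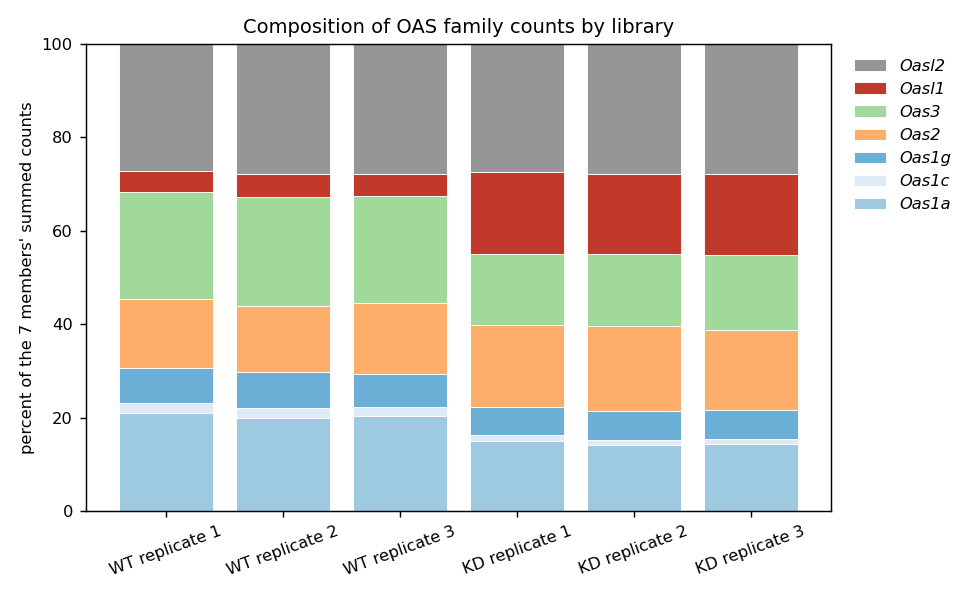
Share of each OAS member in the summed counts of the 7 members (vertical axis, percent), 1 stacked bar for each of 3 WT and 3 KD libraries. The red segment of Oasl1 widens from between 4.59% and 4.89% in the WT libraries to between 17.2% and 17.4% in the KD libraries, while the segments of Oas1a and Oas3 narrow and that of Oasl2 stays near 27.6%.

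The genes listed for the 2-5A pathway changed less than the OAS members. Of the 4 genes of the 2-5A list, 0 were called in either direction with edgeR and 0 with DESeq2, while at an adjusted p, and at an unadjusted p, under 0.05 with edgeR 4 were higher. With 10.2% of all genes tested called higher, 9.98% lower, and 36.7% higher by the adjusted p alone, 0 calls among 4 genes do not set this list apart from other genes. Abce1, a ribosome recycling factor, had 235 ± 7.60 normalized CPM in the WT libraries and 356 ± 13.0 in the KD libraries (SD, n = 3 each). Its log2 fold change was 0.60 (adjusted p = 9.20e-17, edgeR). Pde12, a phosphodiesterase that degrades 2-5A, went from 23.7 ± 2.01 to 39.9 ± 0.344 (log2 fold change 0.75, adjusted p = 9.29e-12, edgeR). Gspt1, a translation termination factor, changed by 0.60 on the log2 scale (adjusted p = 9.61e-17, edgeR). Akap7, a kinase anchoring protein with a phosphodiesterase-like domain, had a log2 fold change of 0.31 (adjusted p = 0.036, edgeR), and over the alternatives its adjusted p ranged from 0.0142 to 0.137. Each of these changes was smaller than that of any OAS member.

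The OAS genes were next set beside the interferon pathway and other RNA and DNA sensors, from 8 lists that held 58 tested genes in all, the 2-5A list and the other OAS genes included. Of these, 25 were called higher (43.1%) and 3 lower (5.17%), against the 10.2% and 9.98% of all genes tested. Some, such as Ifnb1, Oas1d and Ifi44l, passed the expression filter only through the KD libraries, where they are high. With at least 10 counts required in every library, 21 were called higher and 3 lower. Among the interferon genes, 10 of the 21 listed had a row and only Ifnb1, which encodes interferon beta, passed the expression filter. Ifnb1 had 1, 5 and 1 counts in the WT libraries and 40, 66 and 87 in the KD libraries. The groups did not overlap, and the log2 fold change was 4.71 (SE 0.60, adjusted p = 1.56e-08, edgeR). Because it rests on few WT counts it moved to 5.84 without WT replicate 2. The other interferon genes with a row had at most 6 counts in any library.

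Of the 12 tested receptors and transducers, 3 were called higher and 1 lower, against 10.2% and 9.98% of all genes tested. Irf7, which drives interferon genes and is itself induced by interferon, had 71.5 ± 2.09 normalized CPM in the WT libraries and 454 ± 12.1 in the KD libraries (log2 fold change 2.67, adjusted p = 1.00e-34, edgeR). Stat2, a subunit of the complex that type I interferon activates, went from 52.5 ± 4.35 to 226 ± 5.05 (2.11), a change within the range of the OAS members. The other gene called higher was Irf9 (1.04), named after its value was seen, and the gene called lower was Tyk2, a kinase at the interferon receptor (−1.30). At an adjusted p under 0.05, 5 genes of the list were higher and 6 lower, against 36.7% each way of all genes tested. These 12 genes are too few to tell the list from other genes. Of the 4 feedback inhibitors, Usp18, a brake on the interferon receptor, and Socs1 were called higher (log2 fold changes 2.32 and 1.15, adjusted p = 4.22e-32 and 7.36e-14, edgeR). At an adjusted p under 0.05, 3 were higher and 1 lower. The lower gene was Socs3 (log2 fold change −0.55, adjusted p = 9.12e-12, edgeR), named after its value was seen.

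Like OAS proteins, other sensors detect double-stranded RNA, and 4 of 12 of these and their partners were called higher and 0 lower, a 0 that DESeq2 also gave. At an adjusted p under 0.05, and at an unadjusted p under 0.05, 9 were higher and 3 lower in edgeR's test. Of all genes tested, 10.2% were called higher and 9.98% lower, and by the adjusted p alone 36.7% were higher and 36.7% lower. Zbp1, a sensor of left-handed nucleic acid, changed most (27.4 ± 3.42 to 324 ± 10.5 normalized CPM, log2 fold change 3.56, adjusted p = 5.47e-34, edgeR), followed by Tlr3, the endosomal receptor (2.41), and Dhx58, a regulator of RIG-I-like receptors (2.27). The 4th was Ifih1, which encodes MDA5 (2.23), named after its values were seen. Cgas encodes the DNA sensor cGAS, an enzyme of the OAS fold that makes cGAMP with a 2′-5′ bond. It was the 1 gene called higher of 5 in its list (17.0 ± 1.70 to 46.3 ± 1.5 normalized CPM, log2 fold change 1.45, adjusted p = 9.08e-19, edgeR), and its change was close to that of Oas1c. The kinase gene Ikbke was called lower (−1.11), and at an adjusted p under 0.05 all 4 listed genes other than Cgas were lower. These 5 genes are too few to tell the list from other genes.

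Among 19 other interferon-induced antiviral genes, 13 were called higher and 1, Ifi27 (log2 fold change −1.36, named after its value was seen), was called lower. The shares of all genes tested were 10.2% and 9.98%. Some of the 13, such as Ifi44l, passed the expression filter only through the KD libraries. The largest changes were those of Ifi44l (0.389 ± 0.130 to 48.7 ± 3.25 normalized CPM, log2 fold change 6.96, on 9 to 18 counts in the WT libraries), Rsad2, which encodes viperin (5.25), and Cmpk2, its neighbour in mammalian genomes (5.24). Their adjusted p-values were 1.02e-30, 2.06e-39 and 2.89e-40 (edgeR's quasi-likelihood test). The median log2 fold change of this list, 1.97, was near that of the OAS members, 2.04.

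**Figure D4:**
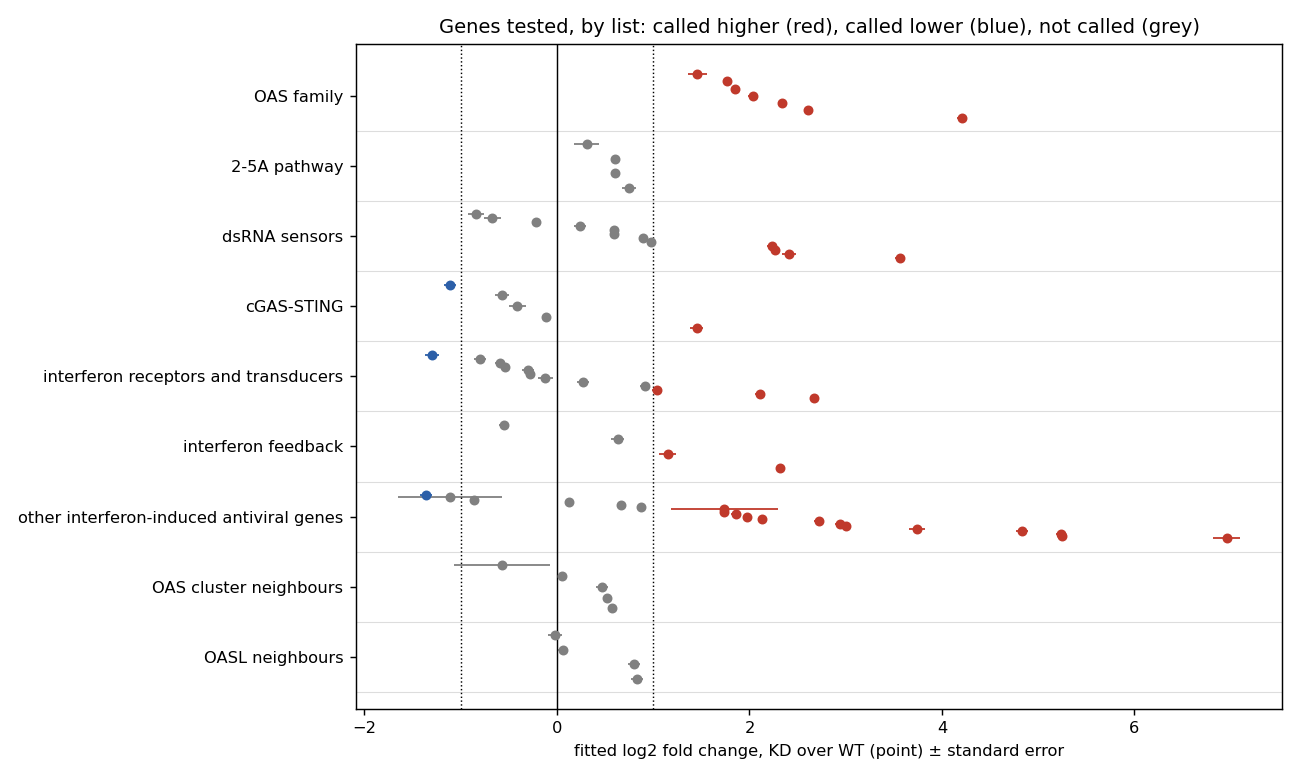
Fitted log2 fold change, KD over WT (horizontal axis), with its standard error for each tested gene of 9 lists; red points were called higher, blue points lower and grey points neither, and dotted lines mark a fold change of 2. The 7 OAS members are all red between 1.46 and 4.21, the 4 genes of the 2-5A list are all grey between 0.31 and 0.75, and the lists of genes near the human OAS loci hold no red or blue point.

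As chromosomal surroundings of the OAS genes, 9 genes near human OAS1, OAS3 and OAS2 were listed. All had a row, 5 were tested and 0 were called (0 also with DESeq2), while 3 were higher at an adjusted and at an unadjusted p under 0.05 in edgeR's test. The largest of these changes was that of Ptpn11 (log2 fold change 0.57), 396 kb from the nearest OAS gene. Rph3a, 6.97 kb from OAS1, had at most 8 counts and Dtx1, 45.0 kb from OAS2, at most 4 counts in any library, too few to be tested. Of 5 genes near human OASL, 4 were tested and 0 were called (0 also with DESeq2), and 2 were higher at an adjusted and at an unadjusted p under 0.05, Camkk2 (0.83) and P2rx7 (0.80). Against 10.2% called higher and 36.7% higher by the adjusted p alone among all genes tested, 5 and 4 tested genes are too few to tell the surroundings from other genes. Distances are those of the human genes in GRCh37, and the neighbours named here were chosen after their values were seen.

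Likeness of pattern was measured as the Euclidean distance between log2 normalized CPM over the 6 libraries, each gene centred on its own mean, for 10829 genes that reached 100 counts in all libraries of either group. The profile of Oasl2, the member with the most counts, was nearest to that of Usp18 (distance 0.0528 log2 units), and Hmcn2, a matrix protein gene (0.0959), Gbp2b, a guanylate-binding protein gene (0.110), and Hgh1 (0.138) were also among the 5 nearest. These genes had log2 fold changes from 2.32 to 2.37, against 2.34 for Oasl2. With 6 libraries in 2 groups, the distance mostly records the size of the group difference. Within the family, Oas1a and Oas3 were the nearest pair (0.140) and Oas1c and Oasl1 the farthest (3.40).

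Some genes of other cell types also differed between the groups. Of all genes tested, 37.8% were above WT in every KD library and 37.8% were below. The list counts include genes too low to be tested, so these shares are only a rough guide to them. All 12 lung genes were above WT in every KD library, with a summed level of 1.78 to 2.07 normalized CPM in the WT libraries and 74.1 to 84.6 in the KD libraries. Of 12 kidney genes, 9 were above and 1 below (sums of 9.37 to 9.80 and 25.4 to 29.7). Cubn (8.28 to 6.07) made up most of the kidney sum in the WT libraries. Lung Scgb1a1 and Sftpc and kidney Kap had the 3 largest log2 fold changes of all genes tested. They had 0 counts in every WT library and 1516 to 1843, 520 to 589 and 311 to 466 in the KD libraries. All 10 tested lung genes and 7 of 9 tested kidney genes were called higher and 0 lower, against 10.2% and 9.98% of all genes tested. Several passed the expression filter only through the KD libraries. Of 16 leukocyte genes, 6 were above and 2 below (84.2 to 99 and 150 to 168). The rise of that sum was mostly S100a8, which went from 33 ± 1.25 to 95.2 ± 6.33 normalized CPM. Of the 16, 8 were tested, too few to tell the list from other genes, and some, such as S100a9, passed the expression filter only through the KD libraries. Among these 8, 4 were called higher and 1 lower, against 10.2% and 9.98% of all genes tested. Called higher among them were the myeloid genes Lyz2 (0.795 ± 0.626 to 6.58 ± 0.199 normalized CPM, log2 fold change 3.04), S100a9 (0, 0 and 2 counts in the WT libraries and 50, 68 and 48 in the KD libraries) and S100a8 (log2 fold change 1.53), and Cd74 of antigen presentation (1.82). The leukocyte gene called lower was Irf8 (12 ± 0.578 to 5.73 ± 0.895 normalized CPM, log2 fold change −1.06). Cd68 overlapped between the groups (42.8 ± 7.38 and 47.2 ± 2.25 normalized CPM). H2-Aa had at most 1 count in the WT libraries and 6 to 24 in the KD libraries, and H2-Ab1 had 0 and 7 to 13. Cd3e was at 0 counts in every library and Ptprc, which encodes the leukocyte antigen CD45, at 5 to 13 counts across both groups. Of 8 endothelial and fibroblast genes, 3 were above and 2 below, and of the 5 tested, 1 was called higher and 2 lower. The 1 called higher, Cdh5, passed the expression filter only through the KD libraries. The sum of the 8 genes (174 to 193 and 134 to 136) followed Pdgfra, which went from 177 ± 9.92 to 74.5 ± 1.39 normalized CPM. Cdh5, which encodes the endothelial VE-cadherin, went from 0.221 ± 0.131 to 57.8 ± 1.45 normalized CPM (log2 fold change 8.01, adjusted p = 4.86e-32, edgeR), and Cldn5 from 0 counts in every WT library to 9, 9 and 18 in the KD libraries, while Pecam1 overlapped between the groups. The genes of these lists named here were chosen after their values were seen. In bulk RNA, more cells of a type and more RNA per cell cannot be told apart, and the part of these cell types in the OAS result was not tested.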

How the data were processed

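RNA-seq of 3 KD and 3 WT libraries was analysed. The authors trimmed adapters, mapped reads with HISAT2 to hg19 per the methods, whereas the submitters' processing notes name hg38, HISAT2, featureCounts and DESeq2, and deposited 1 table of whole-number read counts per gene without normalization. Which annotation was used, and whether strand was, is not given in the sources used here. Columns were matched to samples by name, and 0 columns of values were left unused. Totals were 36979221 to 38799331 counts.

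The test was that of edgeR 4.0.16 under R 4.3.3 (filterByExpr, minimum count 10 and minimum total count 15, TMM, group only, quasi-likelihood test, Benjamini-Hochberg adjustment). A standard error (SE) is the absolute log2 fold change over the root of its F statistic. Normalized CPM use TMM-scaled totals, and log2 CPM a prior count of 2. DESeq2 1.42.0 was an alternative. Scripts were tested on simulated counts. Chi-square per degree of freedom between libraries of a group was 3.88 to 7.60, above the value of 1 that sampling noise gives, so none was deposited in duplicate.

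The members and gene lists were chosen with earlier results of these data known. Named genes are the members, the other OAS genes, the 2-5A list, the 3 largest called changes of each other pathway list and the 5 nearest profiles. Some genes that the lists and nearest profiles would include are not reported here. List symbols were matched without regard to case.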

Additional observations from a re-analysis of the deposited data

How the results depend on the processing

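All 7 members were called higher and 0 lower under each of the 13 alternatives with a refit, and without the fold change threshold. The alternatives were DESeq2's size factors, upper quartile scaling, library totals alone, no filter, a minimum of 10 counts in all 6 libraries, DESeq2's Wald test, the replicate block, and each of the 6 libraries left out. Over these, all 91 member values kept their direction and call, and the log2 fold change ranged most for Oas1c, from 1.35 to 1.54. Without the fold change threshold, 40 genes of the pathway lists were higher and 16 lower, and 4952 of all genes were higher and 4960 lower. With that minimum of 10 counts, 21 genes of the pathway lists and 903 of all genes were called higher, since it leaves fewer genes to test. The replicate numbers did not pair the libraries: same-numbered KD and WT libraries had correlations of −0.022, −0.005 and 0 between their deviations from the group means over 11649 genes. With the replicate block, 7 members, 25 genes of the pathway lists and 1360 of all genes were called higher, and 1316 of all genes lower. Depth limits the statements on Oas1d, Ifnb1 and the other genes under about 10 counts in a group.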
